A study of Homo sapiens with 24 samples.

Results

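Baseline chromatin accessibility was described in the control cells of a study of lamin overexpression, from the 3 ATAC-seq libraries of HEK293 cells that overexpressed eGFP, out of 24 libraries in the series. HEK293 is an established line derived from human embryonic kidney. The labels give the genotype of these cells as Wild Type, the treatment as eGFP Overexpression and 1 batch number for every ATAC library. They do not name the promoter that drove eGFP, and they do not say whether the 3 replicates were separate cultures, so p-values measure only the spread between these libraries. The other groups overexpressed LMNA, LMNB1 or LMNB2 and were not used here. The 3 small RNA libraries of the same GFP condition entered only where small RNA counts or levels are named. The regions were all 175946 feature windows of the ATAC table, each on an annotated non-coding RNA and 125 bp wider than it on both sides. Their class came from the biotype of the small RNA row with the same number, and the names of all 175946 pairs of rows matched. Each window was set against the flanks counted with it, which were 500 bp, 5 kb or 50 kb long on each side and began 350 bp outside the window. Windows and flanks together made up the 1231278 rows of the table. Positions are on GRCh38, counted from 1.

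ATAC-seq uses a transposase that inserts sequencing adapters preferentially where DNA is free of nucleosomes, so the count per base pair rises over active promoters and falls in compact chromatin. Most of the genes with the highest densities below are transcribed by RNA polymerase III (Pol III), which makes tRNAs, 5S ribosomal RNA and several other short RNAs. Pol III genes have promoters of type 1 (5S rRNA genes) or type 2 (tRNA, 7SL, vault and SNAR genes), which lie largely inside the transcribed sequence, or of type 3 (7SK, U6, RMRP, RPPH1), which lie upstream. The genome also holds many copies of these RNAs that were inserted by retrotransposition, mostly without a working promoter. Spliceosomal snRNAs other than U6 and U6atac are made by RNA polymerase II (Pol II) from their own short genes, whereas most snoRNAs are cut from introns of host genes and do not have a promoter of their own.

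The feature windows held 156.0, 194.1 and 212.2 M counts (M, mega) in GFP replicates 1, 2 and 3, of which 93.77, 101.9 and 112.6 M were outside the mitochondrial chromosome. The 46 mitochondrial windows were left out of the tests, which leaves 175900 nuclear windows. Levels are given as TMM-scaled CPM (counts per M of all window counts), per kb of window. Ratios are the log2 of the window's counts per bp over those of its flanks in the same library, so that depth and the copy number of the surrounding chromosome largely cancel. In windows under 600 bp, counts of 1 to 20 were even in 71.9, 69.5 and 68.1% of cases in the 3 libraries, so single counts cannot be read as independent DNA fragments. The fit described next had a biological coefficient of variation of 0.0647 over all windows and of 0.259 over the 22224 windows of 300 to 600 bp fitted alone. It shares variation between windows, so the SE and p-value of 1 locus do not rest on the spread of that locus alone. Counts of calls from that narrower fit are therefore given beside the main ones wherever they differ by more than 1.5 times. The miRNA lists used to check the cell line have calls of the main fit only.

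Over all classes the median window lay close to its surroundings, while most windows were called in 1 direction or the other. Of 174822 nuclear windows tested against their 50 kb flanks, 54550 (31.2%) were called above and 63980 (36.6%) below (edgeR's quasi-likelihood test, Benjamini-Hochberg adjusted p under 0.05), and the median fitted log2 ratio was -0.12. These shares are the background for every count below, but lncRNA intervals make up the bulk of them. In windows of 300 to 600 bp fitted alone, 2009 of 22224 were above and 5449 below. Calls of short RNA windows in that narrower fit are to be set against these counts. Few calls above in the main fit are not by themselves a sign of closed chromatin. Against the 5 kb flanks 54609 of 174280 windows (31.3%) were above and 46510 (26.7%) below. Against the 500 bp flanks 32291 of 173615 (18.6%) were above and 39446 (22.7%) below. This last balance turned when 100 bp (39070 above, 33599 below) or 200 bp (46654 above, 30049 below) was added to each width.

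tRNA windows stood out among the classes. Of 733 tested, 456 (62.2%) were above their 50 kb flanks and 114 (15.6%) below, with a median log2 ratio of 2.24, which is 4.72-fold. Their median density was 1.48, 1.60 and 1.41 CPM per kb in the 3 libraries. The 155204 lncRNA windows had 0.0875, 0.0903 and 0.0978 CPM per kb, and their median log2 ratio was -0.08. The tRNA median exceeded the lncRNA median by 2.31 ± 0.06 log2 units (SD, n = 3 libraries), and in all 3 libraries the tRNA class was higher. The difference was 1.2 with 1 interval per name and 1.42 over the 500 bp flanks. An exact two-sided sign-flip permutation test over the 3 libraries gave p = 0.25, the smallest value that 3 pairs allow, here and for each class difference below.

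Most other classes of short RNA lay below their surroundings. snRNA windows were above their 50 kb flanks in 197 of 2104 cases and below in 903, and their median differed from that of lncRNAs by -0.83 ± 0.18 log2 units (SD, n = 3). That difference ran from -1.32 with 200 bp added to each width to -0.36 with a pseudocount of 2 and -0.15 over the 500 bp flanks. snoRNA windows were above in 160 of 1527 cases and below in 646, a median difference from lncRNAs of -0.68 ± 0.19, which ran from -1.2 with 200 bp added to -0.28 with a pseudocount of 2 and -0.06 over the 500 bp flanks. Y RNA windows (40 above and 458 below of 850) and SRP RNA windows (1016 above and 4020 below of 9383) lay low as well, with median log2 ratios of -1.19 and -0.61. For miRNA precursors (794 above and 1435 below of 4804) the difference from lncRNAs was -0.31 ± 0.12, and for rRNA windows (156 above and 115 below of 530) it was 0.21 ± 0.04. Both of these small differences changed sign under other settings, with values of 0.06, 0.03 and 0.05 for miRNA and -0.16, -0.03 and -0.24 for rRNA. In the fit of windows of 300 to 600 bp alone, the calls above fell from 498 to 188 for SRP RNA, from 40 to 22 for Y RNA, from 154 to 102 for snoRNA and from 106 to 68 for rRNA, over the same windows. The tRNA calls above were 456 and 437 in the 2 fits. Each of these classes mixes working genes with dispersed copies or host-gene introns, and the lists below separate them.

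**Figure D1:**
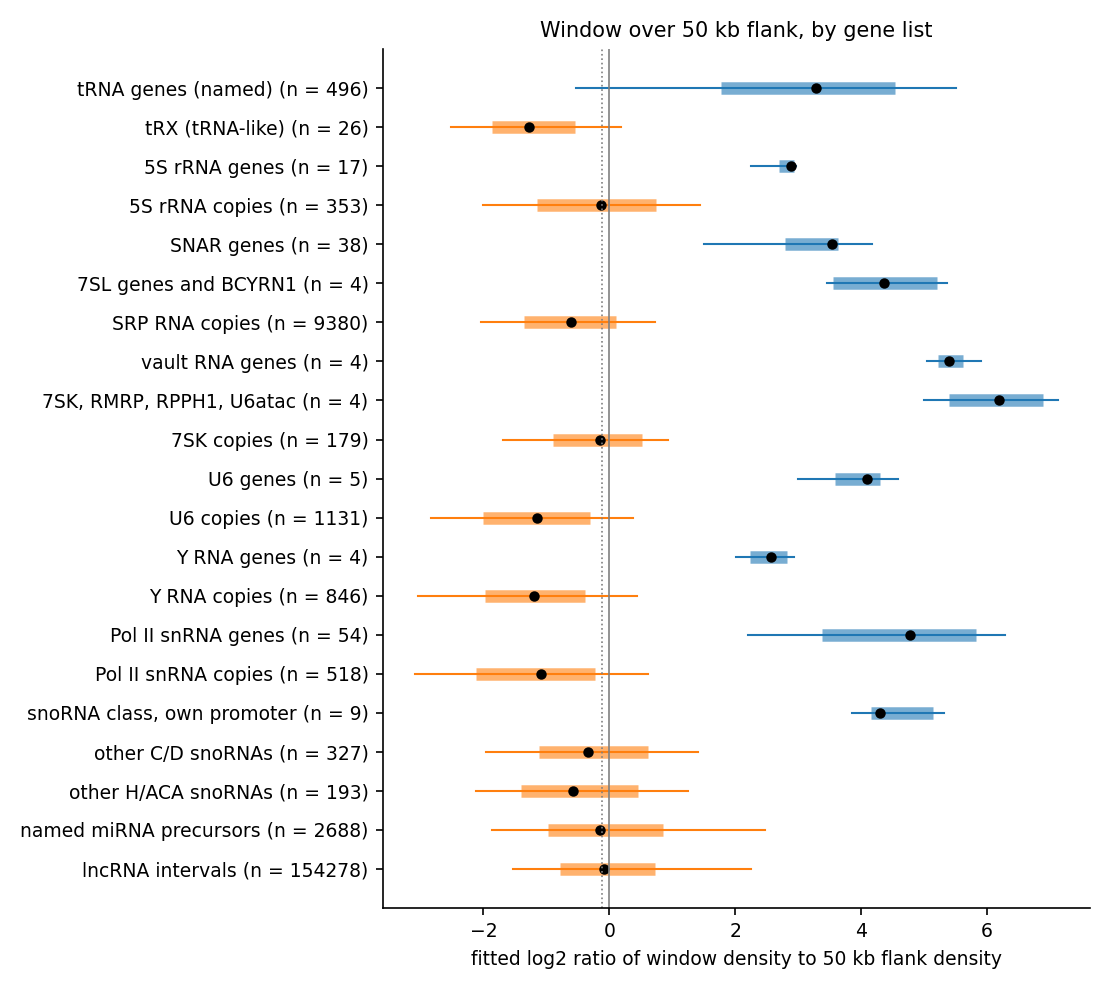
Fitted log2 ratio of window density to 50 kb flank density (x axis) for each gene list (y axis, with the number of windows tested). Black points are medians, thick bars the middle 50% and thin lines the 10th to 90th percentile over windows, blue for genes with their own promoter and orange for copies and other lists, and the dotted line is the median of all nuclear windows (-0.12). Every blue list has a median above 2.5, and every orange list has one between -1.27 and -0.08.

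Named tRNA genes were mostly open. They cover 499 nuclear loci under 293 names, since the table gives several loci the same name. Their median density was 4.77, 5.03 and 4.24 CPM per kb, over a median of 0.361 CPM per kb in the 50 kb flanks. Of 496 loci tested, 413 (83.3%) were above their 50 kb flanks, 43 (8.67%) below and 40 neither, with a median log2 ratio of 3.29 (9.77-fold) and quartiles of 1.77 and 4.53. At 274 loci the fitted ratio was at least 8-fold. The excess was local: against the 5 kb flanks 431 of 497 loci were above and the median log2 ratio was 2.84, and against the 500 bp flanks 375 of 497 were above with a median of 1.95. The 500 bp flanks of tRNA genes had a median of 0.955 CPM per kb and were themselves denser than the 5 kb flanks (0.454 CPM per kb).

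**Figure D2:**
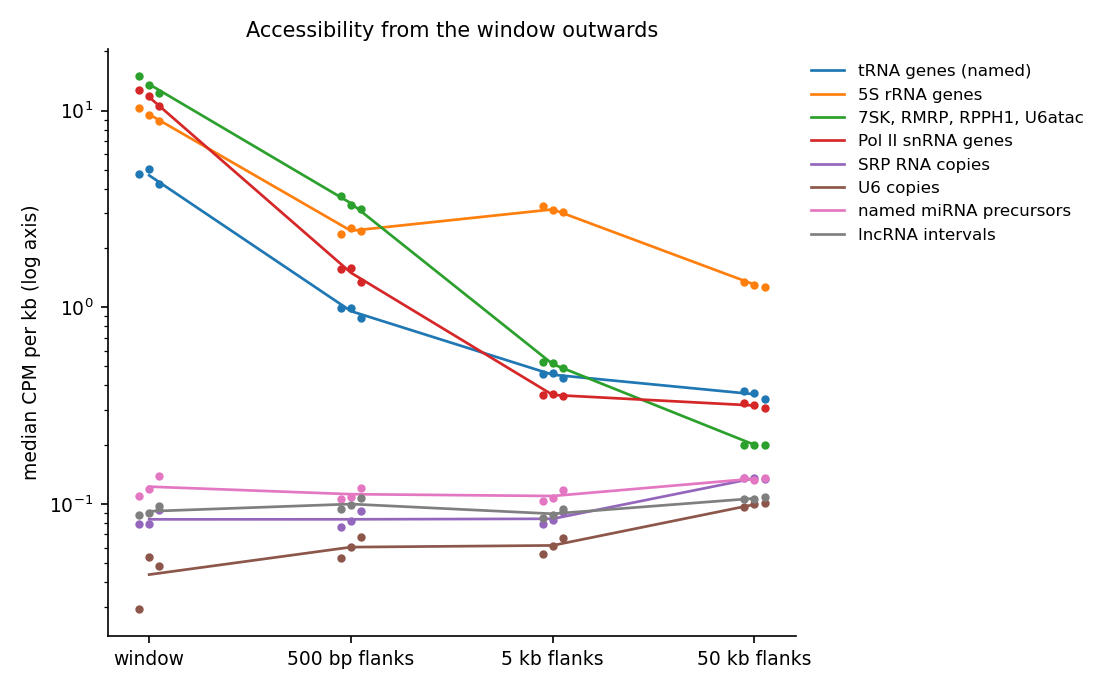
Median density in CPM per kb (log axis) of the window and of its 500 bp, 5 kb and 50 kb flanks, for 8 lists. Points are the 3 GFP libraries, set slightly apart, and lines join their means. Density falls outwards from the genes with their own promoter and is nearly flat around lncRNA intervals, miRNA precursors and SRP RNA copies.

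Among the named tRNA loci, the single highest ratio was at tRNA-Leu-TAA-1-1 (RefSeq TRL-TAA1-1; chromosome 6, 144216522 to 144216654, plus strand), which reads UUA leucine codons. Its density was 21.3, 21.2 and 17.3 CPM per kb, and its log2 ratio to the 50 kb flanks was 7.32 ± 0.11 (SE), 160-fold (edgeR, adjusted p = 1.21e-11). The highest mean density was at tRNA-Thr-AGT-1-1 (RefSeq TRT-AGT1-3; chromosome 19, 33177032 to 33177155), a threonine tRNA gene, with 50.1, 42.6 and 38.2 CPM per kb and a log2 ratio of 6.82 ± 0.08. GFP replicate 1 was the highest library and replicate 3 the lowest at both loci. An initiator tRNA locus, tRNA-iMet-CAT-1-6 on chromosome 17 (window from 82494571), had 34.9, 29.3 and 24.6 CPM per kb and a log2 ratio of 5.87. In the tandem array of chromosome 1 near 161 Mb, tRNA-Glu-CTC (window from 161454461) had 45.5, 45.3 and 39.4 CPM per kb, above the threonine locus in replicates 2 and 3, but a log2 ratio of only 4.71, since the 50 kb flanks there hold further tRNA genes.

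The isotypes differed less than the loci within each. Among isotypes with at least 7 loci, the median log2 ratio ran from 1.87 for asparagine and 2.27 for phenylalanine to 4.30 for arginine and initiator methionine, 4.31 for histidine and 4.76 for elongator methionine. The quartiles overlapped even at the ends of this order: -0.71 and 4.93 for the 36 asparagine loci, 1.38 and 5.59 for the 11 methionine loci. Asparagine was the isotype with the most closed loci, with 20 of 36 above their 50 kb flanks and 9 below. Alanine (45 of 47 above), glutamine (23 of 24), glutamate (17 of 18) and serine (25 of 27) had few. Order among neighbouring isotypes is within their spread and was not tested.

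**Figure D3:**
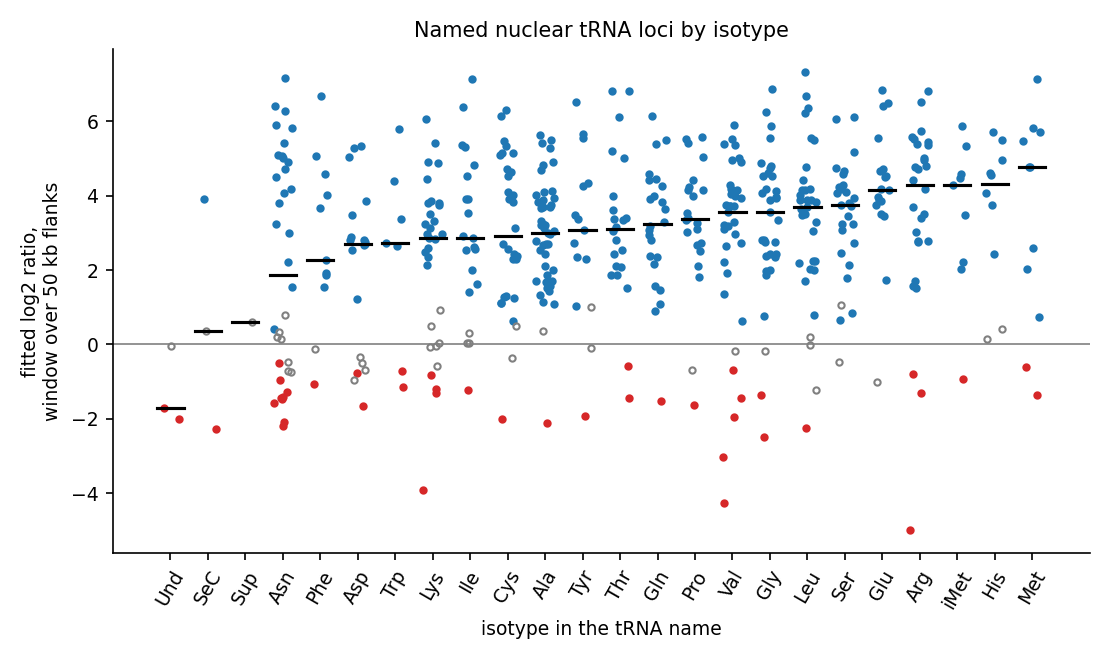
Fitted log2 ratio of window to 50 kb flank density (y axis) for each of the 496 tested named tRNA loci, by the isotype in the name (x axis, in order of the median, black bars). Blue loci were called above, red loci below and open grey loci neither. Open and closed loci occur together in most isotypes, and the spread within an isotype exceeds the differences between medians.

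The selenocysteine tRNA, which is charged with serine and then converted, has 3 loci here, and only 1 of them was open. tRNA-SeC-TCA-1-1 (chromosome 19, 45478577 to 45478712) had 12.5, 11.7 and 9.0 CPM per kb and a log2 ratio of 3.92 ± 0.07 to its 50 kb flanks (edgeR, adjusted p = 3.1e-11). tRNA-SeC-TCA-2-1 (chromosome 22, 44150632 to 44150768) had window counts of 16, 10 and 5 and was not called (log2 ratio 0.35 ± 0.40, adjusted p = 0.467), and its ratio was -0.25 without GFP replicate 1 and 0.87 without replicate 3. tRNA-SeC-TCA-3-1 (chromosome 17, 40117275 to 40117398) had counts of 10, 6 and 9 and lay below its flanks (log2 ratio -2.26 ± 0.20). The counts of the last 2 loci do not overlap the 824, 829 and 717 counts of the first. Unlike other tRNA genes, those of selenocysteine have a type 3 promoter.

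The share of open tRNA loci differed between annotation classes, with open and closed loci in most of them. Of 417 tested loci that RefSeq lists as tRNA genes, 381 (91.4%) were above their 50 kb flanks and 19 below, with a median log2 ratio of 3.57. RefSeq entries were matched by exact start and end, so a locus without a match may still overlap an entry. The 73 tested loci that carry a tRNA name but had no such match had 32 above, 20 below and a median of 0.51. The open locus tRNA-SeC-TCA-1-1 is among them. None of the 6 that RefSeq lists as pseudogenes was above, and 4 were below. The 26 tested tRX loci, a name used for tRNA-like sequences of low confidence, had 3 above, 14 below and a median of -1.27, with 1 above and 11 below in the fit of windows of 300 to 600 bp. Among the closed loci with RefSeq names were the tRNA-Arg-TCT-5-1 locus TRR-TCT5-1, with window counts of 0, 4 and 0, and tRNA-Lys-CTT-8-1 (TRK-CTT8-1), with counts of 2, 7 and 3.

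Loci that share a feature name were not equally open. A shared name does not always mean the same RefSeq gene family. For 25 names with at least 4 tested loci, every locus was above its 50 kb flanks in 23, yet the log2 ratios of loci of 1 name spanned a median of 3.15. The 2 exceptions were histidine and methionine names. For tRNA-His-GTG-1-5, the locus TRH-GTG1-2 (chromosome 1, 147073200 to 147073321) had 0.110, 0.132 and 0.156 CPM per kb and a log2 ratio of 0.16 ± 0.29 (edgeR, adjusted p = 0.639). The other 8 loci of that name had ratios from 2.43 at TRH-GTG1-4 to 5.72 at TRH-GTG1-8 (chromosome 15, 45200388 to 45200509), where the density was 13.7, 11.2 and 10.2 CPM per kb. The 3 loci TRM-CAT4-1, TRM-CAT4-2 and TRM-CAT4-3 of tRNA-Met-CAT-4-3, all near 26.7 Mb of chromosome 6, had log2 ratios of 4.76, 5.83 and 4.78. TRM-CAT5-1 (26701458 to 26701580) and TRM-CAT5-2 (26800088 to 26800210), which bear the same feature name, lie on either side of them and belong to another family in RefSeq, had -0.60 (called below) and 0.73 (called above, edgeR, adjusted p = 0.0494). The small RNA counts differed less among the histidine loci than the ATAC density: the 9 histidine loci had 1202 to 3112 small RNA counts in GFP replicate 1, with 1202 at the closed one.

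The share of open tRNA loci varied with the distance to other start sites. All 37 named loci whose centre lay under 1 kb from a protein-coding RefSeq start were above their 50 kb flanks (median log2 ratio 4.82). At 1 to 10 kb it was 56 of 71 (3.13), at 10 to 100 kb 224 of 274 (3.23) and beyond 100 kb 91 of 106 (2.77). Distance to the next named tRNA showed another order. Loci under 1 kb from a neighbour were above in 133 of 137 cases (3.86), and those over 100 kb from any in 74 of 101 (median 4.15). The 2 chromosomes with most loci were 6, with 146 of 168 above (2.91), and 1, with 84 of 112 above and 16 below (3.39).

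The 228 tRNA rows without a tRNA name were a different set. Of 211 tested, 40 were above their 50 kb flanks and 57 below, with a median log2 ratio of -0.34, and 122 of the 228 lay over RefSeq pseudogenes named as copies of mitochondrial genes. The summed counts of those 122 windows were 310936, 471198 and 500514, so that replicates 2 and 3 had 1.52 and 1.61 times the count of replicate 1. The mitochondrial windows themselves had ratios of 1.48 and 1.60, and the named tRNA windows 1.03 and 1.02. The part of mitochondrial reads in the counts of the nuclear copies was not tested.

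Type 1 genes were represented by the 17 5S rRNA genes of chromosome 1 (from 228610243), which encode the RNA of the large ribosomal subunit that Pol III makes. All 17 were above their 50 kb flanks, with median densities of 10.3, 9.50 and 8.88 CPM per kb and log2 ratios from 1.94 to 2.99. Their 5 kb flanks had a median of 3.14 CPM per kb, since neighbouring repeats of the array lie in them. The sequences are nearly identical, so reads of 1 repeat may have been counted at others. Of 353 dispersed 5S copies tested, 73 were above and 90 below with a median of -0.13, and 36 and 59 in the fit of windows of 300 to 600 bp.

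Among other type 2 genes, SNAR, 7SL and vault genes were open. SNAR RNAs bind the protein NF90, and 35 of 38 SNAR windows were above their 50 kb flanks, with a median density of 15.7, 14.9 and 13.2 CPM per kb. The 3 that were below are the divergent members SNAR-D, SNAR-E and SNAR-F, with densities of 0.183, 0.0939 and 0.150 CPM per kb against 18.1 at a SNAR-A1 locus (from 47918406 on chromosome 19). RN7SL1, RN7SL2 and RN7SL3 encode the RNA of the signal recognition particle, which guides secreted proteins to the endoplasmic reticulum. RN7SL2 (chromosome 14, 49862528 to 49862889) had 12.6, 10.6 and 10.1 CPM per kb and a log2 ratio of 5.48 ± 0.08, RN7SL1 one of 5.12 ± 0.09 and RN7SL3 one of 3.61 ± 0.09. BCYRN1, a brain-expressed relative, was open in these kidney-derived cells as well, at 2.95, 2.17 and 2.08 CPM per kb and a log2 ratio of 3.39 ± 0.12.

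The 4 genes named as vault RNAs had log2 ratios of 4.93 (VTRNA1-1), 5.47 (VTRNA1-2), 5.31 (VTRNA1-3) and 6.08 (VTRNA2-1) to their 50 kb flanks. VTRNA2-1 (chromosome 5, 136080472 to 136080622), whose imprinting varies between people, had 12.1, 11 and 9.19 CPM per kb. Its 500 bp flanks were far lower than the window, by 4.76 log2 units, and those of VTRNA1-1 by 3.05. The 4 values over 50 kb exceeded the upper quartile of the named tRNA genes (4.53).

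The 4 single type 3 genes were all open, with log2 ratios from 4.74 to 7.27. RPPH1, the RNA of ribonuclease P (chromosome 14, 20343050 to 20343432, minus strand), had 18.5, 16.2 and 14.8 CPM per kb and a log2 ratio of 7.27 ± 0.10, 155-fold. RN7SK, which holds the elongation factor P-TEFb inactive (chromosome 6, 52995596 to 52995973, plus strand), had 15.7, 13.2 and 12.6 CPM per kb and a ratio of 6.76 ± 0.12. RMRP, the RNA of ribonuclease MRP (chromosome 9, 35657729 to 35658042, minus strand), had 14.4, 13.8 and 12.1 CPM per kb and a ratio of 5.61 ± 0.08. RNU6ATAC, of the minor spliceosome, had 8.29, 8.15 and 6.05 CPM per kb and a ratio of 4.74 ± 0.10. All 4 were called (edgeR, adjusted p from 1.1e-11 for RMRP to 6.62e-11 for RNU6ATAC). In each of the 4, GFP replicate 3 was the lowest library. Their openness reached into the nearest flanks, and the median log2 ratio to the 500 bp flanks was 2.00.

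The 4 Y RNA genes, clustered on chromosome 7 and bound by the Ro protein, were open at lower densities than the type 3 genes just named. RNY3 had 2.73, 2.86 and 2.34 CPM per kb (log2 ratio 2.77 ± 0.10 to the 50 kb flanks), RNY5 1.84, 1.88 and 2.01 (3.00 ± 0.12), RNY1 2.50, 1.63 and 1.79 (2.36 ± 0.12) and RNY4 0.741, 1.23 and 0.954 (1.87 ± 0.18). Differences between neighbours in this order were not tested, and RNY4 was the lowest in every library. Against the 500 bp flanks RNY3 and RNY4 were called above, and RNY1 (adjusted p = 0.0601) and RNY5 (log2 ratio -0.30, adjusted p = 0.0581) were not called. Of 846 dispersed Y RNA copies, 36 were above their 50 kb flanks and 458 below, with a median of -1.2, and 18 and 323 in the fit of windows of 300 to 600 bp.

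U6 snRNA shows the contrast between genes and copies for 1 RNA. The 5 loci that correspond to U6 genes had a median density of 2.64, 2.57 and 1.99 CPM per kb and log2 ratios from 2.59 to 4.77, and all 5 were above their 50 kb flanks. The highest was named RNU6-9;RNU6-1 (chromosome 19, 1021497 to 1021652) with 14.7, 14.0 and 12.3 CPM per kb. A further 4 loci carry the name RNU6-1 alone, and 3 of them overlap RefSeq genes with pseudogene symbols. RNU6-3P (chromosome X, 141118006 to 141118161) had window counts of 9, 16 and 17 and a log2 ratio of 2.06 ± 0.31, and RNU6-5P (chromosome 2, 174557942 to 174558097) had counts of 20, 27 and 10 and a ratio of 1.80 ± 0.33. RNU6-4P (chromosome 3) and the locus on chromosome 10 (13217244 to 13217399) were not called, with ratios of 1.05 ± 0.54 and 0.52 ± 0.34. The lowest density among the 5 genes, 1.44 CPM per kb in a library, lay above the highest among these 4 loci, 0.364. Of 1131 other U6 copies, 44 were above and 531 below (19 and 365 in the fit of windows of 300 to 600 bp), with a median of -1.15.

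Over all Pol III families together, 486 of 572 gene windows (85.0%) were above their 50 kb flanks and 46 below, with medians of 3.32, 3.35 and 3.25 in the 3 libraries. Of 11931 dispersed copies, 1191 (9.98%) were above and 5153 (43.2%) below, with medians of -0.78, -0.67 and -0.51. The 2 sets differ in family, since 496 of the gene windows were named tRNA loci and most copies were SRP RNA copies. The tRX loci and the tRNA rows without a tRNA name were in neither set. The medians of the 2 sets did not overlap in any library. In windows of 300 to 600 bp fitted alone, 474 of 568 genes and 268 of 9994 copies were above, where the main fit had 482 and 671. How reads that match several places were counted is not given in the sources used here, and low density at a copy and poor mapping to it cannot be told apart. Among copies, the highest ratio was at an SRP RNA copy named lnc-KDM4C-18 (chromosome 9, 9442035 to 9442404), with 1.60, 1.45 and 1.09 CPM per kb and a log2 ratio of 5.65 ± 0.24.

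**Figure D4:**
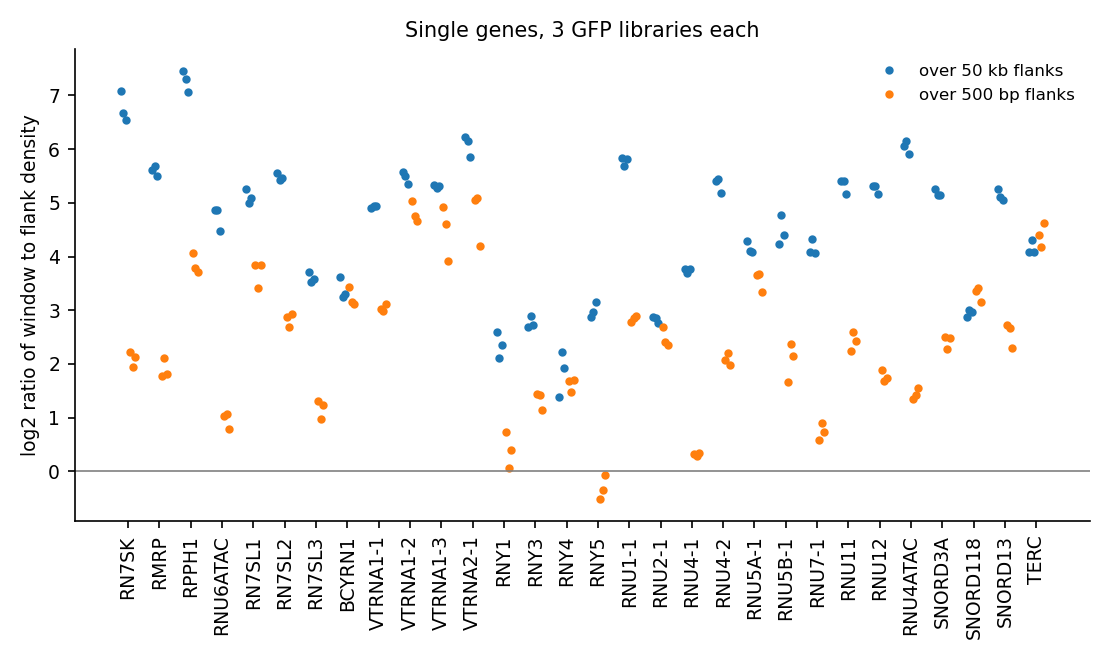
Log2 ratio of window to flank density (y axis) for 30 single genes (x axis), 3 points for the 3 GFP libraries, against the 50 kb flanks (blue) and the 500 bp flanks (orange). All blue points lie above 0. The orange points of RNY5 lie at or below 0 and those of RNU4-1 near 0.3, while TERC and SNORD118 stand as high over the 500 bp as over the 50 kb flanks.

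Pol II snRNA genes were open as well. Of 54 windows on U1, U2, U4, U5, U7, U11, U12 and U4atac genes and U1 variants, 49 were above their 50 kb flanks and 3 below, with a median density of 12.7, 11.9 and 10.5 CPM per kb and a median log2 ratio of 4.77 (27.4-fold). RNU1-1 (chromosome 1, 16514097 to 16514310, minus strand), which recognises the 5′ splice site, had 26.9, 22.7 and 22.9 CPM per kb and a log2 ratio of 5.78 ± 0.07. RNU4ATAC and RNU11 of the minor spliceosome had ratios of 6.04 ± 0.11 and 5.33 ± 0.10. RNU7-1, which processes histone mRNA ends, had 4.15 ± 0.08. The 12 RNU2-1 windows of the tandem U2 array on chromosome 17 lay in dense flanks; the locus from 43273079 had 24, 20.9 and 17.9 CPM per kb but a ratio of 2.83 ± 0.04. The U1 variant genes reached the top of the class, with RNVU1-8 (chromosome 1, 147084592 to 147084781) at 8.79, 9.26 and 8.78 CPM per kb and a ratio of 7.26 ± 0.11. The 3 windows below their flanks were U1 variants, among them RNVU1-17 (-1.57) and RNVU1-26 (-2.83). Of 518 dispersed copies of these snRNAs, 35 were above and 247 below, with a median of -1.08 (22 and 176 in the narrower fit).

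RNU4-1 and RNU4-2, neighbours on the minus strand of chromosome 12, encode U4 snRNA. RNU4-2 (120291738 to 120291928) had 12, 12 and 9.50 CPM per kb and a log2 ratio of 5.35 ± 0.09 to its 50 kb flanks, and RNU4-1 (120293072 to 120293262) had 4.69, 4.4 and 4.23 CPM per kb and 3.74 ± 0.08. RNU4-2 was denser in every library. Over its 500 bp flanks RNU4-1 was higher by only 0.32 log2 units (edgeR, adjusted p = 0.0124), since its downstream flank, which lies just upstream of RNU4-2, held 627, 638 and 667 counts against 14, 20 and 16 in its upstream flank.

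The snoRNA class split by promoter. The 9 windows of U3 (SNORD3), U8 (SNORD118), U13 (SNORD13) and telomerase RNA (TERC), which are transcribed from promoters of their own, were all above their 50 kb flanks, with median densities of 17.4, 14.9 and 13 CPM per kb and a median log2 ratio of 4.30. SNORD3A (chromosome 17, 19187991 to 19188739), needed for the first cuts of pre-rRNA, had 31.1, 26.6 and 24.7 CPM per kb and a ratio of 5.19 ± 0.05. SNORD118 had a ratio of 2.95 ± 0.05 over 50 kb and of 3.30 over 500 bp, and TERC of 4.16 ± 0.10 and 4.41. Among other named snoRNAs, 62 of 327 C/D windows were above and 99 below (median -0.33), and 39 of 193 H/ACA windows were above and 84 below (median -0.57). In the fit of windows of 300 to 600 bp, 46 and 65 C/D and 25 and 52 H/ACA windows were called. Of 394 dispersed U13 copies, 8 were above and 213 below.

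The median named miRNA precursor lay near its surroundings, and windows with a protein-coding start inside were mostly above theirs. Starts of other genes were not split off for this list. Of 2688 windows tested, 690 were above and 678 below, with a median log2 ratio of -0.14. The 67 windows that hold a protein-coding RefSeq start had 62 above, a median ratio of 4.94 and densities of 9.01, 8.51 and 6.90 CPM per kb. The other 2621 had 628 above and 675 below (432 and 440 in the fit of windows of 300 to 600 bp) and a median of -0.17. MIR2110 (chromosome 10, 114174126 to 114174197), whose window holds such starts, was the highest precursor, with 15.8, 16.2 and 13.9 CPM per kb and a ratio of 7.95 ± 0.12. MIR196A1, of the HOXB region of chromosome 17, was among the lowest, with counts of 4, 3 and 8 and a ratio of -3.11 ± 0.23.

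The miRNA loci also served as the check of the cell line, since the table holds non-coding features only. Of 48 precursors listed as markers, 46 were matched. Calls of the marker windows are those of the main fit. Among 9 precursors used for proliferating lines, the MIR106B, MIR93 and MIR25 windows were above their 50 kb flanks (log2 ratios 0.76, 0.44 and 0.33). The calls of MIR93 and MIR25 had adjusted p-values of 0.0248 and 0.0274 (edgeR). The 6 windows of the MIR17 to MIR92A1 cluster were not called (0.05 to 0.64), though some of their ratios exceeded that of MIR25. The summed counts of the 9 windows were 231, 194 and 246. Neighbouring windows overlap within the MIR25 to MIR106B and the MIR17 to MIR92A1 clusters, so shared reads count for more than 1 window. The same holds for MIR192 and MIR194-2 and for the 5 pluripotency windows, so calls within a cluster are not separate observations. Of 7 kidney epithelial precursors, MIR30A and MIR204 were above (1.41 and 1.35) and 4 were below, including MIR10A at -2.19 and MIR192 at -0.67. MIR204 had window counts of only 2, 21 and 13. Its log2 ratios in GFP replicates 1, 2 and 3 were -0.79, 2.34 and 1.33, so the libraries differed in direction. The median log2 ratio of the kidney list was -0.67. Among markers of other cell types, the neural list had the highest median of the lists, 1.35, with 3 of 5 tested windows above and 0 below. The blood list had 3 of 5 above and 1 below (median 0.44), striated muscle 1 above and 1 below of 6, and pluripotent cells 1 above and 0 below of 5. None of the 5 epithelial windows was above and 2 were below, MIR200C (-1.49) and MIR141 (-1.24), and of 2 endocrine windows MIR7-3 (-1.62) was below. MIR155, a blood marker, had the highest ratio of the marker windows, with window counts of 78, 84 and 114 and a ratio of 3.41 ± 0.14 (edgeR, adjusted p = 6.04e-09). No small RNA count was found at the 5 pluripotency precursors in any GFP library. The summed small RNA counts of the proliferating list were 6512, 8979 and 23237 in the 3 GFP libraries. The kidney list had 5004, 10718 and 50824, of which MIR10A, called below, had 3869, 8186 and 38617. The endocrine list had 810, 2140 and 10158, of which MIR7-3, called below, had 767, 2062 and 9999. The neural list had 70, 180 and 675, the endothelial precursor 82, 153 and 780, and the blood list 73, 117 and 392. Epithelial precursors had 32, 62 and 161, and those of striated muscle 0, 1 and 1. The order of the lists by ATAC ratio was thus not their order by small RNA count. A precursor can lie far from its promoter, so these windows do not measure the promoter of the gene.

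lncRNA intervals, the bulk of the table, had a median log2 ratio of -0.08 (51676 above and 56264 below of 154770), and it varied with width and with start sites inside. The 21147 tested windows that hold the start of a protein-coding RefSeq gene had 15160 above and 3701 below, with a median ratio of 1.16. The 31549 with a start of another RefSeq gene had 12498 above (0.07), and the 102074 with none had 24018 above and 43257 below (-0.27). In windows under 1 kb the 3 medians were 4.14, 1.47 and -0.44, and in windows over 100 kb they were 0.05, -0.09 and -0.07. Many of these intervals overlap, and reads in the overlap count for each.

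**Figure D5:**
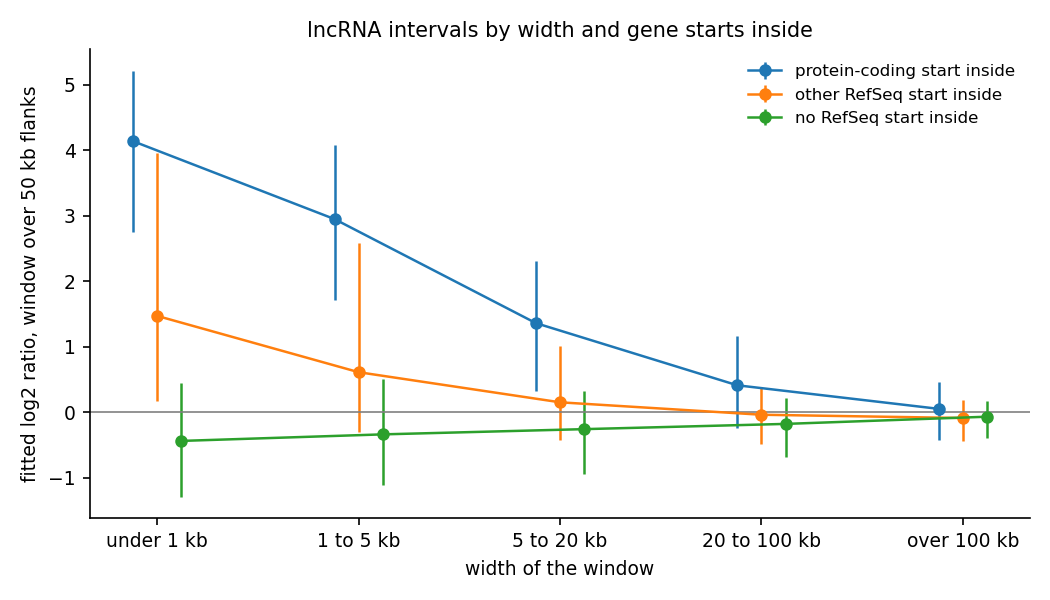
Fitted log2 ratio of window to 50 kb flank density (y axis) for lncRNA intervals by the width of the window (x axis) and by the kind of RefSeq start inside it. Points are medians and bars the middle 50% over windows. The medians run from 4.14 for windows under 1 kb with a protein-coding start to 0.05 over 100 kb, while windows without a start stay between -0.44 and -0.07.

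Well-known lncRNAs ranged from modest to several-fold openness. GAS5 (chromosome 1, 173851260 to 173868977, minus strand), a snoRNA host whose RNA rises in growth arrest, had 0.715, 0.761 and 0.672 CPM per kb over 17968 bp and a log2 ratio of 2.31 ± 0.06. SNHG1, another snoRNA host (chromosome 11, 62851913 to 62856036), had 1.2, 1.13 and 0.999 CPM per kb and a ratio of 0.79 ± 0.06 to its 50 kb but 2.53 to its 5 kb flanks. NEAT1, the scaffold of paraspeckles, had 1.34, 1.2 and 1.08 CPM per kb (ratio 1.05 ± 0.04), and its neighbour MALAT1, of nuclear speckles, 1.17, 1.16 and 0.994 (0.92 ± 0.05). The families of snoRNA hosts together (GAS5 and the genes named SNHG, 383 windows under 29 names) had 290 above and 77 below and a median of 1.55.

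MIR17HG, the host of the miR-17-92 cluster, shows what an interval without its start can miss. The window of its widest interval (chromosome 13, 91348973 to 91377847) had 0.130, 0.122 and 0.116 CPM per kb, a ratio of 0.32 ± 0.09 to the 50 kb flanks (edgeR, adjusted p = 0.00739) and of -2.36 to the 500 bp flanks. The upstream 500 bp flank held 114, 116 and 119 counts and the downstream one 0, 2 and 0. The RefSeq start of the gene lies further upstream, in the promoter printed next (91347437 to 91347736), which the 500 bp flank does not reach. The upstream 5 kb flank does cover it, and the log2 ratio to the 5 kb flanks was -1.66.

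Promoter sequence was compared with openness for the 2424 lncRNA genes of the table that matched RefSeq (GRCh38.p14) by symbol, with the widest interval of each. The sequences run from 250 bases before to 50 after the start. Of these, 3 are printed, in lower case with CpG dinucleotides in capitals, because they span the range of CpG content among the genes above: MIR17HG with 42 CpG (chr13:91347437-91347736, plus strand), SNHG1 with 30 (chr11:62855836-62856135, minus strand) and GAS5 with 5 (chr1:173868996-173869295, minus strand). The median was 7 over the lncRNA promoters and 14 over all 27305 promoters in the table.
MIR17HG: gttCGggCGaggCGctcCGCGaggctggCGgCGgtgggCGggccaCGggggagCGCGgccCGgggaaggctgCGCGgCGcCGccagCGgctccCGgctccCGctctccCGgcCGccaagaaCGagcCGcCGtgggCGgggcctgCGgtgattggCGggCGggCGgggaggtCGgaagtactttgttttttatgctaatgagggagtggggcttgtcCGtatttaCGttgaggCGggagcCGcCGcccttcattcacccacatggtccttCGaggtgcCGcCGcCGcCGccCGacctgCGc
SNHG1: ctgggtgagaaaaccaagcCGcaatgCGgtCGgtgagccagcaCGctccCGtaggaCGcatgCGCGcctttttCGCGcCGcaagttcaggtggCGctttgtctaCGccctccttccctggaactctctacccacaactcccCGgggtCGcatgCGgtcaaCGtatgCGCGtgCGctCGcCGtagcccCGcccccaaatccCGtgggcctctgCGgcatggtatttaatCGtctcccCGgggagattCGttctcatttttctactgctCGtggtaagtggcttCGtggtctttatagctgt
GAS5: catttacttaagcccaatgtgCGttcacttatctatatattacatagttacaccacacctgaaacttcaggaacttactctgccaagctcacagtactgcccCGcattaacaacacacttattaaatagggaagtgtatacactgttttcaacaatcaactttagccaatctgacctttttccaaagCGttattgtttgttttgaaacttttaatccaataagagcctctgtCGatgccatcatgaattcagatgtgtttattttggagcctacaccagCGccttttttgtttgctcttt

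CpG-rich promoters went with open windows. Ranked by CpG count, 140 (23.1%) of the 606 lncRNA genes with the fewest were above their 50 kb flanks and 454 (74.9%) of the 606 with the most, with median log2 ratios of -0.12 and 1.28. Among the 782 genes with windows under 5 kb, where the promoter makes up more of the window, it was 50 of the 196 with the fewest (25.5%, median -0.08) and 184 of the 196 with the most (93.9%, median 3.18). Pearson's r across these 782 genes was 0.54 and Spearman's rho 0.58, as a description, since genes share libraries and base composition also affects ATAC-seq counts. GAS5 departs from the relation, with 5 CpG and a ratio of 2.31. Most of its printed promoter (173868996 to 173869295) also lies outside its window, which ends at 173869102 and is 17968 bp wide. MIR17HG departs in the other direction, with its CpG-rich promoter outside the window.

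Motifs were searched on both strands of these promoters. The GC box GGGCGG, bound by Sp1, was in 782 of the 2424 (32.3%, against 44.6% of all 27305 promoters), and 67.9% of the windows with it were above their 50 kb flanks, against 33.9% of those without. The ETS motif CCGGAAG was in 7.47% (10.7% of all promoters), with 67.4 and 43.0% above. The cAMP response element TGACGTCA was in 31 (1.28%, against 1.98%), of which 24 were above. The TATA box TATAAA was in 12.1% (12% of all), with 31.7% above against 46.6% without it. The CCAAT box was in 35.3% (35.7% of all), with 44.4 and 45.1% above. The GC box, the ETS motif and the cAMP response element contain a CpG, so these shares overlap with the CpG counts. Of the promoters printed above, SNHG1 holds a TATA-box and a GC-box match, MIR17HG a CCAAT-box and a GC-box match, and GAS5 a CCAAT-box match, which describe the letters and not a bound site.

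The 2 sides of a feature differed mostly in 1 direction for lncRNAs and in both directions for tRNAs. Of 167587 windows tested, the upstream 500 bp flank was higher in 42102 (25.1%) and the downstream flank in 13973 (8.34%). lncRNA windows had 40213 and 11971 of 147966, and those that hold a protein-coding start 12544 and 1322 of 20970, with a median log2 ratio of upstream to downstream of 2.40. For the SNHG and GAS5 windows it was 231 and 15 of 376. Among tRNA rows the 2 directions were nearly balanced, with 188 and 171 of 745. Pol II snRNA genes leaned to the downstream side, with 15 higher upstream and 26 downstream of 54. RNU1-1 is an example, with 18, 28 and 42 counts upstream and 647, 543 and 593 downstream, whereas RMRP had 685, 530 and 654 upstream and 32, 51 and 53 downstream.

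Openness of the locus and the amount of small RNA went together for named tRNAs. They showed little correlation for named miRNA precursors and C/D and H/ACA snoRNAs, the other lists examined. Across 496 named tRNA loci, the mean log2 ratio to the 50 kb flanks and the log small RNA level of the GFP libraries had a Pearson's r of 0.56 and a Spearman's rho of 0.48. The median small RNA level was 6.50 CPM at the 413 loci above their flanks, 0.109 at the 40 not called and 0.236 at the 43 below. For 2688 named miRNA precursors r was 0.06 and rho 0.01, for 327 C/D snoRNAs 0.02 and -0.12, and for 193 H/ACA snoRNAs 0.00 and -0.03. C/D snoRNAs above and below their flanks had like small RNA medians, 11.9 and 11 CPM. The 166 C/D windows not called had a far lower median, 0.00467 CPM. These are descriptions across loci, which share libraries and, among tRNAs of like sequence, small RNA reads.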

How the data were processed

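ATAC-seq was analysed in the 3 GFP libraries (GFP columns matched by sample description). The authors deposited raw counts per window for ATAC-seq and per feature for small RNA; no blank rows entered. The build is GRCh38 per the submitters' processing notes; the aligner, counting tool, strand, duplicate and multi-mapping rules and any shift of reads to the insertion site are not given in the sources used here, and each can change densities, above all at repeats. Per window, window and flank counts of the same library were compared in edgeR 4.0.16 (R 4.3.3; quasi-likelihood, robust), with the library as a block and log width times library size as offset, where at least 2 counts per library were expected in the smaller part; Benjamini-Hochberg adjustment ran over all nuclear windows. Levels are TMM-scaled CPM per kb; library ratios used a pseudocount of 0.5. On simulated counts for 174821 windows against 50 kb flanks, the fit recovered 84 and 94% of windows changed by -1 and 1 on the log2 scale and 94 and 100% at -2 and 2. Every simulated window had about the coefficient of variation of the main fit (0.0647). Windows of 300 to 600 bp had 0.259 when fitted alone, so these rates are not known to hold for them. The replicate numbers pair window and flank of 1 library, which is why the main fit is blocked. Alternatives were filters, DESeq2 1.42.0, width corrections, single sides, narrow windows, 1 interval per name, thresholds and each library left out. The named genes were a fixed list of Pol III, snRNA, snoRNA-class and lncRNA genes, the 2 highest and 2 lowest called ratios per biotype with counts at or above its median, and the highest and lowest per tRNA isotype; other loci named (tRNA-Glu-CTC, closed tRNA loci, loci sharing a name, U1 variants, SNAR members) were chosen after their values were seen. The members and lists were chosen with earlier results of these data known. Names and promoters came from RefSeq (GRCh38.p14).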

Additional observations from a re-analysis of the deposited data

Results flagged for a closer look

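Mitochondrial DNA gave counts outside the main comparison. The 46 windows on the mitochondrial chromosome took 39.9% of all window counts in GFP replicate 1, 47.5% in replicate 2 and 47.0% in replicate 3, and none has a 50 kb flank. Replicates 2 and 3 had 1.48 and 1.60 times the mitochondrial count of replicate 1, against 1.06 and 1.18 times for nuclear windows outside tRNA genes and copies of mitochondrial genes.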

How the results depend on the processing

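Without the replicate block (the pairing of window and flank by library), 55409 windows were above and 65921 below their 50 kb flanks, and 414 named tRNA loci were above (54550, 63980 and 413 with it), so that it moved none of these counts by over 1.5 times. Leaving out 1 library gave 49821 to 52638 windows above and 56357 to 62523 below their 50 kb flanks, and 406 to 415 tRNA loci above. With 1 interval per name, 25250 were above and 37309 below of 98694, and 219 of 292 tRNA names were above. Windows of 300 to 600 bp alone gave 2009 above and 5449 below of 22224. Requiring an absolute log2 ratio of at least 1 left 34421 above and 36526 below over 50 kb, and 35186 and 29150 over 5 kb. The narrower fit also had a higher coefficient of variation (0.259 against 0.0647). Adding 100 bp to each width gave 39070 windows above and 33599 below their 500 bp flanks, and 200 bp gave 46654 and 30049 (32291 and 39446 without), so that both turn the balance of calls. DESeq2 called 51541 above and 58699 below over 50 kb. The miRNA difference from lncRNAs turned to 0.06 with a pseudocount of 2, 0.03 in windows of 300 to 600 bp and 0.05 over 500 bp flanks. The rRNA difference turned to -0.16 with an expected count of 10, and to -0.03 and -0.24 with 100 and 200 bp added. Scaling to nuclear counts alone moved the median tRNA level from 4.68 to 8.49 CPM per kb. Over all settings for named loci, 1239 values kept direction and call, 1 gained and 2 lost the call, and 7 turned: to -0.05 at RNU6-1 on chromosome 10 and -0.25 at tRNA-SeC-TCA-2-1 with 200 bp added, to -0.25 at the latter without GFP replicate 1 (0.87 without replicate 3), and with a single flank side to 1.37 (SSU_rRNA_bacteria_rRNA_URS0000963F71), 0.30 (ENSG00000230876.8), 0.78 (LSU_rRNA_eukarya_rRNA_URS000095D156) and 0.93 (ENSG00000198785.5). The cause was not tested. Mitochondrial windows could not be added, since none has a 50 kb flank. Depth limits narrow windows: the median U6 copy had a mean count of 3.67.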

Other observations

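Outside the gene lists, the highest ratios lay over nuclear stretches related to mitochondrial DNA. The 2 lncRNA windows named lnc-MTRNR2L12-3 on chromosome 3 had the highest log2 ratios of the class, 11.25 and 11.07. The wider of them, from 96617373, had counts of 6451, 9047 and 9496. Of the 25 windows with the highest count per bp, 23 lay in 1 stretch of chromosome 1 (628912 to 635074) over RefSeq pseudogenes named as copies of mitochondrial genes. SNORA109 on chromosome X, the highest snoRNA with an H/ACA name, had counts of 869, 1308 and 1363 and so rose 1.51 and 1.57 times from replicate 1, whereas MIR2110 had 868, 951 and 923. The part of mitochondrial reads at these windows was not tested.

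The lowest lncRNA ratios came from the flank and not from the window. LINC00486 (chromosome 2, 32840989 to 32902148) had a log2 ratio of -7.26 to its 50 kb flanks, which held 134543, 161995 and 183247 counts, but -0.28 to its 5 kb flanks, which was not called (edgeR, adjusted p = 0.0895). Its own density, 0.0550, 0.0558 and 0.0562 CPM per kb, was below the median of all lncRNA windows but not extreme. The overlapping interval ENSG00000230876.8 had -7.02 against both 50 kb flanks and 0.30 against the upstream one alone.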
